A study of Homo sapiens with 14 samples.

Results

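The human mitochondrial genome carries 37 genes, and each of them had a row in the deposited read counts of 28120 genes. They were taken by the MT- prefix of their symbols on chromosome M, and comprised 13 protein-coding genes, 2 ribosomal RNA (rRNA) genes and 22 transfer RNA (tRNA) genes. The cells were PANC-1, an established human pancreatic cancer line, at passage 3-5. Groups were DMSO, the vehicle, at 0, 3, 12 and 24 h, and proanthocyanidins (PA, plant polyphenols) at 20 µg/ml for 3, 12 and 24 h. Each of the 7 groups had 2 libraries, 14 in all, described as biological replicates of the 1 line. There was no PA library at 0 h, so PA was compared with DMSO of the same time. Total RNA was extracted with Trizol and sequenced as paired reads of 151 nt.

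Mitochondrial DNA is a small circle that is transcribed from both strands into long precursors by a dedicated RNA polymerase with the factors TFAM and TFB2M. The tRNAs sit between most of the other genes, and cutting them out at both ends releases the rRNAs and mRNAs, a layout known as tRNA punctuation. The protein-coding genes give subunits of respiratory complexes I (the MT-ND genes), III (MT-CYB), IV (MT-CO genes) and V (MT-ATP genes), and every other subunit of these complexes is encoded in the nucleus. The rRNAs and tRNAs serve the mitochondrial ribosome.

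Of the 37 genes, 28 are encoded by the heavy strand and 9 by the light strand, and the light-strand set is MT-ND6 with 8 tRNA genes. The RNA of the 2 kinds differs in base composition. In the reference sequences of GENCODE 29 (build GRCh38), the RNA strand held more G than C in 9 of 9 light-strand genes, against 1 of 28 heavy-strand genes (MT-TI). MT-ND6 had 35.6% G and 7.0% C, and the 12 heavy-strand protein-coding genes had 6.3% to 16.2% G and 29.5% to 36.0% C. The first 90 bases of MT-ND6 (chrM:14584-14673, minus strand) show this bias and are given because the deposited files disagree most on light-strand genes. Capitals mark its first codon.
MT-ND6: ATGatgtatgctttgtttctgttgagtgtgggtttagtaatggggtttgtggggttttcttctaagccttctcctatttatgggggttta

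Neighbouring genes overlap in 5 places, where a read can fit 2 genes. MT-TI (chrM:4263-4331, plus strand) and MT-TQ (chrM:4329-4400, minus strand), the tRNAs for isoleucine and glutamine, run towards each other from opposite strands and share 3 positions at their 3′ ends, in capitals. MT-TQ is shown because it held most of the tRNA reads.
MT-TI: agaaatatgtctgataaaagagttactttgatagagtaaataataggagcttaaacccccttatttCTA
MT-TQ: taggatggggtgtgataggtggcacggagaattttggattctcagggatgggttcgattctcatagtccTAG

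MT-ATP8 (chrM:8366-8572, plus strand) and MT-ATP6 (chrM:8527-9207, plus strand), which encode 2 subunits of ATP synthase, lie on 1 messenger and share 46 bases. Counts of the pair are therefore not separate at that stretch, in capitals below. The other overlaps are 7 bases between MT-ND4L and MT-ND4, and 1 base each between MT-ATP6 and MT-CO3 and between MT-TC and MT-TY.
MT-ATP8: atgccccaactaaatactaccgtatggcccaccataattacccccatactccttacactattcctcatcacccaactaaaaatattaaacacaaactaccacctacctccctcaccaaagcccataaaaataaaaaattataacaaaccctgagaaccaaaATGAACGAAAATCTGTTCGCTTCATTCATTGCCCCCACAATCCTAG

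MT-ND3 (chrM:10059-10404, plus strand), a small membrane subunit of complex I, is shown in part because it had the largest change among the protein-coding genes. Its 346 bases make 115 codons and 1 base over, so the genome supplies only the first letter of its stop codon, which the poly(A) tail completes. The last 241 bases (chrM:10164-10404) are given, with that base in capitals. MT-TD (chrM:7518-7585, plus strand), the tRNA for aspartate, is shown because it was among the tRNA genes with the largest change in both deposited tables.
MT-ND3: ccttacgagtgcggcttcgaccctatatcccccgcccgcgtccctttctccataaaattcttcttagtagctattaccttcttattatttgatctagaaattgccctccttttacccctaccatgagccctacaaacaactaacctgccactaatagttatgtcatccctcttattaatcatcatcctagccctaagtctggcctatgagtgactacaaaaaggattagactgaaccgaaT
MT-TD: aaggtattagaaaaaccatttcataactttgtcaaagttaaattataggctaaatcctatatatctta

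Libraries held 26403984 to 35213154 reads in genes, and mitochondrial genes took 4.35% to 10.0% of them. Epithelial and PANC-1 markers were abundant (6 of 7 at a median of at least 1 CPM, read counts scaled to library size with edgeR's TMM factors), led by the keratin KRT8 at a median of 2872 CPM. Markers of other cell types were low, with 1 of 7 for fibroblasts (COL1A1, median 20.4 CPM), 2 of 6 for leukocytes (CD68, which many cells express, 44.5 CPM) and 0 of 4 for endothelium at that level. The PA 12 h libraries stood apart from each other: all 13 protein-coding mitochondrial genes were higher in replicate 1, by 0.63 (MT-ND4L) to 1.20 (MT-ND3) on the log2 scale, while MT-RNR1 and MT-RNR2 differed by 0.05 and 0.10 in the other direction. Calls at 12 h on the library scale are therefore also given without replicate 1, in a fit where the 1 PA library left is assumed to vary like the libraries of the other groups. Nuclear copies of the 16S rRNA gene took few reads: the 9 MTRNR2L rows together held 907 reads over all libraries, 0.0118% of the MT-RNR2 count, of which MTRNR2L1 had 661 and MTRNR2L8 133.

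Before exposure, levels per gene length (RPKM, reads scaled to library size and gene length, computed here from the counts) differed widely among the 37 genes at DMSO 0 h. MT-RNR2, the 16S rRNA, was highest at 9629 and 11727. The messengers of complex IV came next, MT-CO2 at 6813 and 6814 and MT-CO1 at 5414 and 5946, and were followed by MT-ATP6 at 4512 and 4354 and MT-ATP8 at 4002 and 3639.8. MT-RNR1, the 12S rRNA, lay at 2875 and 3592, and its 2 libraries enclosed the values of MT-ND3 (3443 and 3577), MT-ND4 (3209 and 3213), MT-ND1 (3173 and 3060.3) and MT-ND2 (3091 and 3097), so MT-RNR1 is not separated from these 4 in order. The lowest protein-coding gene was MT-ND5, the longest of them, at 1589.6 and 1651. Among tRNA genes MT-TQ, at 1310.2 and 1783, was level with MT-ND5, and the next, MT-TP, reached only 137 and 173. The places of light-strand genes in this order hold for the counts only. In the deposited RPKM at DMSO 0 h MT-ND6 (862 and 571) lay below MT-ND5 (1047 and 1062), and MT-TQ had 6.61 and 13.8. MT-TW, the tRNA for tryptophan, had no read in either 0 h library, which allows up to 0.111 and 0.0852 CPM (3 reads). The rRNAs lack the long poly(A) tails of nuclear messengers, and library selection was not stated, so levels are compared between conditions rather than between RNA classes below.

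Mitochondrial RNA took a larger share of the libraries after PA at 12 and 24 h. The 13 protein-coding genes held 3.05 and 2.99% of reads in the DMSO 3 h libraries and 3.25 and 2.94% with PA. At 12 h they held 3.05 and 2.91% with DMSO and 5.49 and 3.34% with PA. At 24 h the values were 3.03 and 3.25% and 6.27 and 5.82%, and DMSO cells at 0 h held 3.82 and 3.86%. Groups overlapped at 3 h and did not at 12 and 24 h, although the lower PA library at 12 h (3.34%) was little above the DMSO libraries, and only the 24 h PA libraries both exceeded the 0 h level.

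The 2 rRNA genes held 1.29 and 1.65% of reads at 3 h with DMSO and 1.85 and 1.75% with PA. Their share was 1.51 and 1.61% against 2.24 and 2.66% at 12 h and 2.25 and 1.51% against 3.72 and 2.39% at 24 h. The rRNA groups did not overlap at any of the 3 times, although the 2 libraries of each 24 h group lay far apart. The 22 tRNA genes held very little: 0.0129 and 0.0115% with DMSO and 0.0129 and 0.0181% with PA at 3 h, where the groups met, 0.0111 and 0.00974% with DMSO and 0.0396 and 0.0251% with PA at 24 h, and 0.0119 and 0.00926% against 0.0218 and 0.0187% at 12 h.

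**Figure D1:**
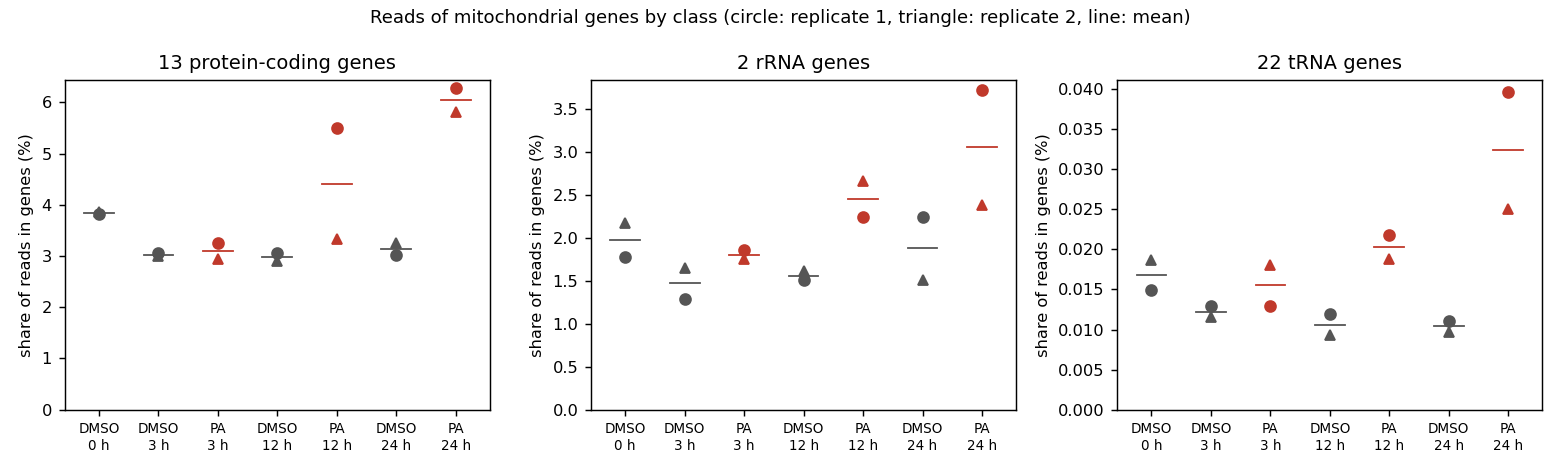
Share of reads in genes (%, vertical axis) of the protein-coding, rRNA and tRNA genes in the 14 libraries by group (horizontal axis), with replicate 1 as circles, replicate 2 as triangles, the mean as a line, DMSO in grey and PA in red. The protein-coding share at PA 24 h (6.27% and 5.82%) lies above every DMSO library, and the 2 PA 12 h libraries lie apart (5.49% and 3.34%).

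Over the 3 times, the protein-coding share was 1.47 percentage points higher with PA (exact permutation test within time, two-sided, p = 0.0278, adjusted p = 0.0463 over 5 measures, 6 libraries against 6). The rRNA share was 0.80 points higher (exact permutation p = 0.00926, the smallest that the arrangements within time allow, adjusted p = 0.0463) and the tRNA share 0.0116 points higher (exact permutation p = 0.0185, adjusted p = 0.0463). Proportions within the mitochondrial RNA did not pass: rRNA reads per protein-coding read differed by 0.0244 (exact permutation p = 0.787, adjusted p = 0.787) and the share of MT-ND6 among protein-coding reads by -0.27 percentage points (exact permutation p = 0.241, adjusted p = 0.301). Both averages mix signs. At 3, 12 and 24 h the rRNA difference was 0.095, 0.079 and -0.10, and that of MT-ND6 was -0.40, -0.70 and 0.29 points. The 3 calls of class shares depended on single libraries: each was lost without DMSO 24 h replicate 1 or 2 or PA 24 h replicate 1 (adjusted p = 0.0617 to 0.0926), and the protein-coding call also without PA 12 h replicate 1 (0.0617), PA 3 h replicate 1 (0.0772) or either DMSO 12 h library (0.139). They were also lost on summed deposited RPKM (exact permutation adjusted p = 0.116, 0.116 and 0.694). With the replicate number as a block, the exact permutation adjusted p of each was 0.104. That test cannot decide whether the calls hold. It allows fewer arrangements, and with both proportions far from passing, the shares could not reach 0.05. In bulk RNA, more mitochondrial RNA per cell and less of the other RNA cannot be told apart.

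Gene by gene, edgeR's quasi-likelihood test (Benjamini-Hochberg adjusted p under 0.05, over 15181 genes) covered 33 of the 37 members. All protein-coding and rRNA genes and 18 tRNA genes passed the filter on low counts, and MT-TM, MT-TW, MT-TK and MT-TR did not. At 3 h of PA none of the 33 passed the test; over all genes tested 0.138% were called higher and 1.58% lower, 3 members had an unadjusted p under 0.05, and DESeq2 called 1. At 12 h 18 members rose and 0 fell, where 24.4% of all genes were called higher and 24.1% lower. At 24 h 28 members rose and 0 fell, against 27.2% of all genes higher and 27.5% lower. Averaged over the 3 times, 25 members were higher with PA (31.5% of all genes). The median log2 change of the 33 was 0.19 at 3 h, 0.68 at 12 h and 1.13 at 24 h, beside -0.01, 0.01 and -0.01 over all genes tested.

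The difference between times was tested directly. The PA effect was greater at 24 h than at 3 h for 15 members (12 protein-coding and 3 tRNA genes; 8.24% of all genes were called in that direction), and for 0 it was smaller (6.2% of all genes). Between 12 h and 3 h, edgeR called 0 members (12 at an unadjusted p under 0.05, DESeq2 3; 2.1% of all genes higher and 0.685% lower), and between 24 h and 12 h also 0 (7 unadjusted, DESeq2 1; 0.263% of all genes higher and 0.158% lower). The PA 12 h libraries decided both: the effect at 12 h was greater than at 3 h for 16 members without replicate 2 (14.7% of all genes in that fit), and that at 24 h greater than at 12 h for 12 members without replicate 1 (1.75% of all genes).

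**Figure D2:**
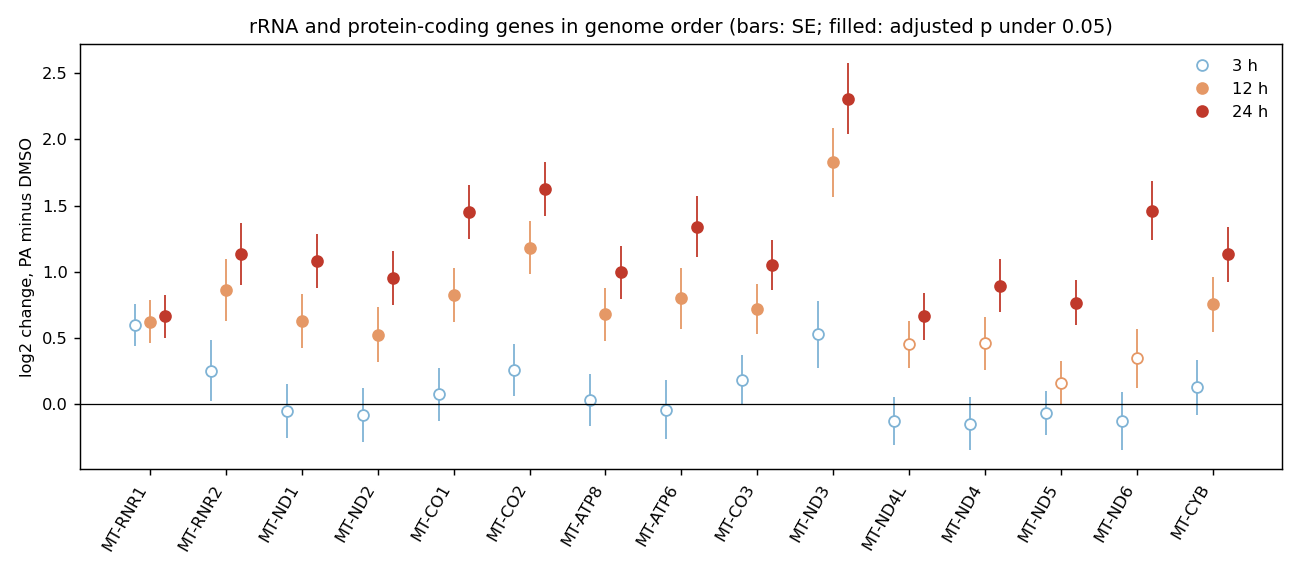
Log2 change of PA against DMSO (vertical axis, ± SE) for the 2 rRNA and 13 protein-coding genes in genome order (horizontal axis) at 3, 12 and 24 h, filled where the adjusted p was under 0.05. No gene is filled at 3 h, 11 are at 12 h and all 15 at 24 h, with MT-ND3 highest (2.31 at 24 h).

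Complex I genes differed most among themselves. MT-ND3 read 1152 and 1235 CPM at DMSO 0 h. At 3 h it was 907 and 922 with DMSO and 1368 and 1271 with PA, at 12 h 619.6 and 678 against 3207 and 1397, and at 24 h 857 and 945 against 4753 and 4174. Both PA libraries lay above both DMSO libraries at each time, and the 24 h pair stood above every other library. Its log2 change was 0.53 ± 0.25 (SE) at 3 h (adjusted p = 0.306), 1.83 ± 0.26 at 12 h (adjusted p = 0.000171) and 2.31 ± 0.27 at 24 h (adjusted p = 2.22e-05).

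MT-ND5, a proton-pumping subunit and the longest of the protein-coding genes, had the smallest change of the 13 at 12 h. It read 1818 and 1757 CPM with DMSO and 2441 and 1554 with PA, groups that overlapped (log2 change 0.16 ± 0.17, adjusted p = 0.456). At 24 h it read 1556 and 1854 against 2993 and 2805 and rose by 0.77 ± 0.17 (adjusted p = 0.00199). Those PA values lay close to the DMSO 0 h libraries (2786 and 2984).

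MT-ND6, the light-strand subunit gene, did not pass the test at 12 h, at 739 and 776 CPM with DMSO and 1242 and 683 with PA (log2 change 0.34 ± 0.22, adjusted p = 0.21). By 24 h it read 633 and 844 against 2081 and 1987 and had risen by 1.46 ± 0.22 (adjusted p = 0.000162). The deposited tables differ for MT-ND6, as described below. On deposited RPKM (limma on log2(RPKM + 1)) its change was -0.36 at 12 h (adjusted p = 0.428) and 0.996 at 24 h (adjusted p = 0.0343).

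The other complex I genes rose at 24 h by less than MT-ND3. MT-ND1 and MT-ND2, core membrane subunits, rose by 0.63 and 0.53 at 12 h (adjusted p = 0.021 and 0.0479) and by 1.08 and 0.95 at 24 h. Without PA 12 h replicate 1 their 12 h changes were 0.13 and 0.04 and did not pass (adjusted p = 0.502 and 0.878), while MT-ND3 still rose, by 1.11 (adjusted p = 8.26e-06). MT-ND4 and MT-ND4L, which share a messenger, had log2 changes of 0.46 and 0.45 at 12 h (adjusted p = 0.073 and 0.0502) and rose by 0.90 and 0.66 at 24 h. At 3 h these 4 genes and MT-ND5 lay between -0.15 and -0.05, and none passed the test.

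All 3 complex IV genes were called at 24 h and at 12 h, but at 12 h MT-CO2 alone of the 3 was also called without PA 12 h replicate 1. MT-CO2, the copper-binding subunit that receives electrons from cytochrome c, read 3649 and 3711 CPM with DMSO and 4863 and 3940.5 with PA at 3 h. It read 3675 and 3664 against 10689.8 and 5972 at 12 h and 4283 and 4328 against 13959.6 and 12576 at 24 h. PA libraries were above DMSO libraries at every time, and the change was 0.26 ± 0.20 at 3 h (adjusted p = 0.508), 1.18 ± 0.20 at 12 h (adjusted p = 0.000534) and 1.62 ± 0.20 at 24 h (adjusted p = 4.17e-05). MT-CO1, the catalytic subunit with the heme and copper site that reduces oxygen, read 7665 and 8056 against 22326 and 20591 at 24 h. It rose by 0.82 at 12 h and 1.45 at 24 h (adjusted p = 0.00494 and 9.38e-05). MT-CO3, the remaining mitochondrial subunit, rose by 0.72 and 1.05. Leaving out PA 12 h replicate 1 gave 12 h changes of 0.71 for MT-CO2 (adjusted p = 0.000555), 0.32 for MT-CO1 (adjusted p = 0.0546) and 0.29 for MT-CO3 (adjusted p = 0.115).

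MT-CYB, the cytochrome b of complex III, read 1752 and 1909 CPM with DMSO and 4089 and 3942 with PA at 24 h, and rose by 0.76 at 12 h and 1.13 at 24 h (adjusted p = 0.00874 and 0.000551). Of the complex V genes, MT-ATP6, part of the proton channel, read 2153 and 2411 against 6090.0 and 5467 at 24 h. It rose by 0.80 and 1.34 (adjusted p = 0.0108 and 0.000341). MT-ATP8, whose last 46 bases are those printed in capitals above and also begin MT-ATP6, rose by 0.68 and 0.996. The 12 h calls of these 3 genes were lost without PA 12 h replicate 1, with changes of 0.25 (MT-CYB, adjusted p = 0.166), 0.21 (MT-ATP6, adjusted p = 0.251) and 0.23 (MT-ATP8, adjusted p = 0.261).

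**Figure D3:**
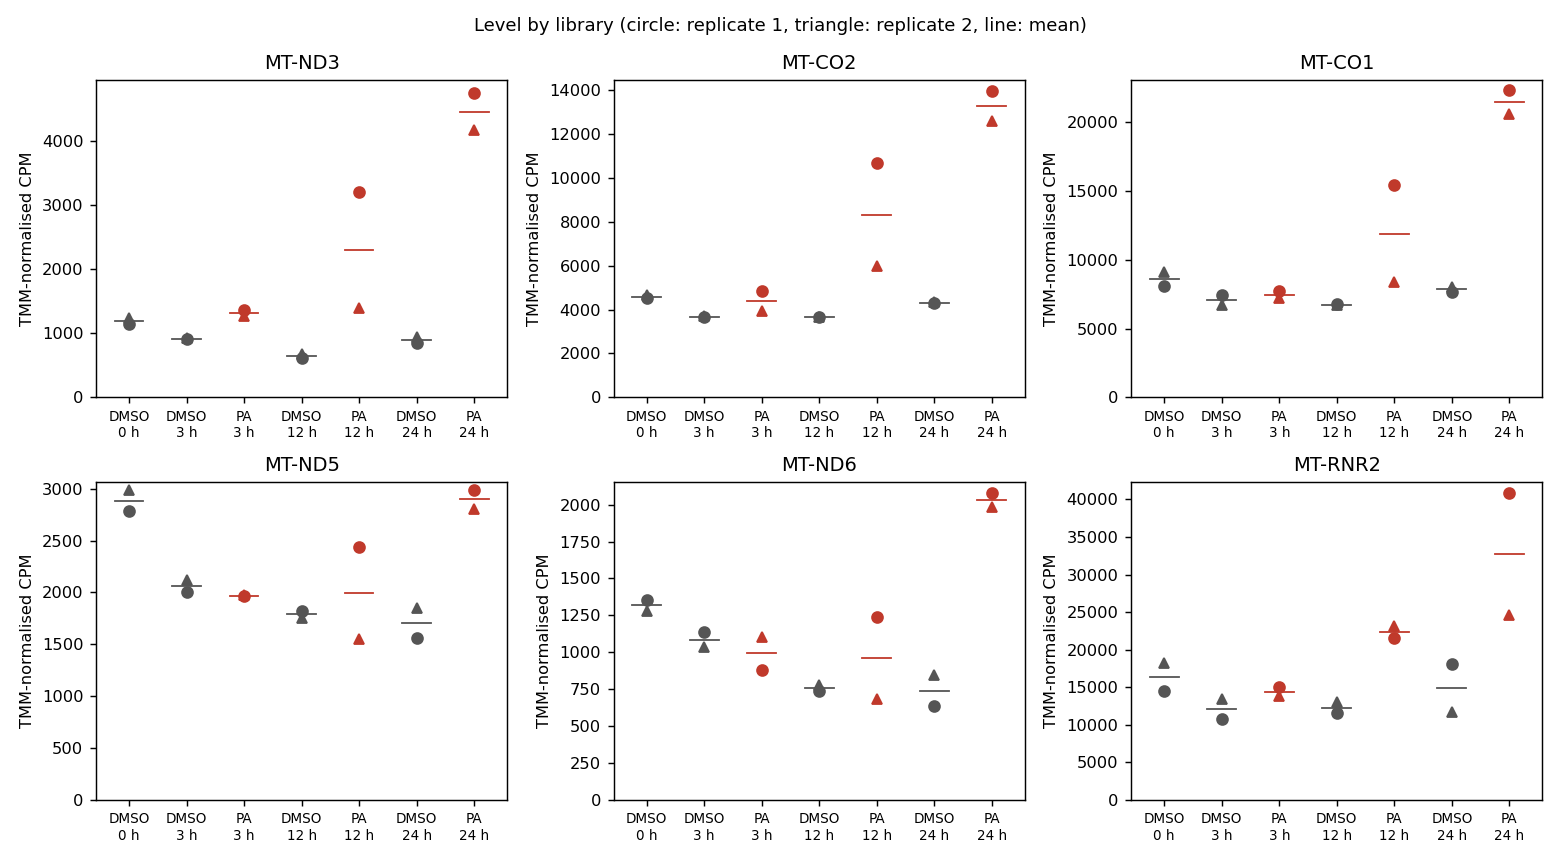
TMM-normalised CPM (vertical axis, from 0) of 6 members in each library by group (horizontal axis), replicate 1 as circles, replicate 2 as triangles, means as lines, DMSO grey and PA red. In each panel the PA 24 h libraries lie above the DMSO 24 h libraries, while at 12 h MT-ND5 and MT-ND6 overlap with DMSO.

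Both rRNA genes rose at 12 and 24 h. MT-RNR1 read 1744 and 2515 CPM at 3 h with DMSO and 3192 and 3259.8 with PA, 2104 and 2119 against 3203 and 3305 at 12 h, and 2579.8 and 2530.2 against 4222 and 3866 at 24 h. Its PA libraries were above DMSO at each time by a similar amount: 0.60 ± 0.16 (adjusted p = 0.0868), 0.62 ± 0.16 (adjusted p = 0.00633) and 0.66 ± 0.16 (adjusted p = 0.00357). MT-RNR2 read 11516 and 13045 CPM against 21566 and 23100.3 at 12 h and 18149 and 11657 against 40815 and 24591 at 24 h. It rose by 0.86 ± 0.23 (adjusted p = 0.00826) and 1.13 ± 0.23 (adjusted p = 0.00123), with replicates of each 24 h group spread widely. Both were still called at 12 h without PA 12 h replicate 1, at 0.65 and 0.92 (adjusted p = 0.0091 and 0.00908). The 12S count per 16S count was 0.142 and 0.217 with DMSO and 0.103 and 0.157 with PA at 24 h, and these ranges overlapped.

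At 12 h the size of the change depended on 1 library. Without PA 12 h replicate 1, 8 members were called in place of 18 (14% of all genes higher in that fit, in place of 24.4%). They were MT-ND3, MT-CO2, both rRNA genes, MT-TQ, MT-TA, MT-TC and MT-TP, and the median change of the 13 protein-coding genes was 0.21 in place of 0.68. Without replicate 2, 22 were called (27.9% of all genes), all 13 protein-coding genes among them, with a median of 1.03. Leaving out DMSO 12 h replicate 2 gave 11 (16.7% of all genes). At 24 h, leaving out any 1 of the 4 libraries gave 21 to 25 members in place of 28, with 12 or 13 of the protein-coding genes. The 2 PA 12 h libraries had 30721243 and 27801440 reads, both within the range of the others.

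With DMSO alone, mitochondrial messengers were lower after the start. All 13 protein-coding genes were below the 0 h libraries in both DMSO libraries at 3, 12 and 24 h, where 12.6%, 30.7% and 29.8% of all genes tested lay below without overlap. How many passed the test depended on the fit. With all 14 libraries few did: none at 3 h (10 members at an unadjusted p under 0.05; 0% of all genes called), MT-TS2 at 12 h (1.13% of all genes lower), and MT-ND5 and MT-TQ at 24 h (1.93% lower). MT-ND5 went from 2786 and 2984 CPM to 1556 and 1854 at 24 h, a log2 change of -0.76 ± 0.17 (adjusted p = 0.0325). MT-TQ changed by -1.21 (adjusted p = 0.0456), and MT-TS2, from 1.72 and 1.78 CPM to 0.308 and 0.485 at 12 h, by -2.12 (adjusted p = 0.0329). Every one of these 3 calls was lost when any 1 library of the groups compared was left out, and DESeq2 called 4 members at 12 h and 6 at 24 h. Fitting the libraries of each comparison alone called 20 members at 12 h and 17 at 24 h, and leaving out the filter on low counts 14 and 11. The shares of all genes called by DESeq2 and in these fits are not given here. These counts therefore show only that the number of calls depended on the fit.

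The make-up of the messenger pool also differed with PA. MT-ND3 took 2.25 and 2.47% of protein-coding mitochondrial reads at 12 h with DMSO and 5.29 and 4.22% with PA, and 3.07 and 3.09% against 6.26 and 6.01% at 24 h. MT-CO2 took 13.3 and 13.4% against 17.6 and 18% and 15.3 and 14.2% against 18.4 and 18.1%. In the other direction, MT-ND5 took 6.58 and 6.41% against 4.02 and 4.69% at 12 h and 5.57 and 6.06% against 3.94 and 4.04% at 24 h. The 2 PA 12 h libraries, far apart in level, were close in make-up for MT-CO2 and MT-ND6 (2.05 and 2.06%).

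Refitting all genes with each library scaled to its 13 protein-coding mitochondrial genes tested this. At 12 h MT-ND3 was higher by 1.01 ± 0.17 (adjusted p = 0.00158) and MT-CO2 by 0.42 ± 0.14 (adjusted p = 0.0318), and MT-ND5 was lower, at -0.58 ± 0.16 (adjusted p = 0.014). At 24 h MT-ND3 was higher by 0.99 ± 0.17 (adjusted p = 0.000209), and MT-ND2, MT-ND4, MT-ND4L and MT-ND5 were lower, with changes of -0.36, -0.42, -0.65 and -0.54. MT-RNR1 was lower too, at -0.65 (adjusted p = 0.0333), and MT-CO2, at 0.31, no longer passed (adjusted p = 0.0644). This scale moves the median of all genes tested to -0.65 at 12 h and -1.32 at 24 h, and on it 3.24% and 1.61% of all genes were higher and 36.6% and 70.9% lower. It shows unequal change within the organelle's RNA, not a fall in level: on the library scale the same 24 h genes had risen.

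Of the 18 tRNA genes tested, 7 rose at 12 h and 13 at 24 h, and 0 fell, beside 24.4% and 27.2% of all genes called higher. Without PA 12 h replicate 1, 4 of the 7 were called at 12 h (MT-TQ, MT-TA, MT-TC and MT-TP), and MT-TD, MT-TN and MT-TH were not (adjusted p = 0.369, 0.157 and 0.131). MT-TQ made up 50.6 and 46.5% of tRNA reads at 24 h with DMSO and 76.5 and 70.5% with PA. It read 59.7 and 40.3 CPM with DMSO and 138 and 107 with PA at 12 h and 51.9 and 42.7 against 367 and 211 at 24 h. Groups were separate at both times, and its change of 2.61 ± 0.31 at 24 h (adjusted p = 2.54e-05) was the largest among the 33 members, after 1.29 ± 0.29 at 12 h (adjusted p = 0.0031).

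MT-TD read 0.369 and 0.287 CPM with DMSO and 1.59 and 1.46 with PA at 24 h, and rose by 2.20 ± 0.42 (adjusted p = 0.000706). At 12 h it rose by 1.29 ± 0.44 (adjusted p = 0.0279). MT-TN, the tRNA for asparagine, rose by 1.12 and 2.08. MT-TA, MT-TC and MT-TP, for alanine, cysteine and proline, rose at 12 h by 1.42, 1.50 and 1.24 and at 24 h by 0.87, 1.20 and 1.19. MT-TH, for histidine, rose at 12 h (1.90) but had 1.04 at 24 h (adjusted p = 0.103), on 0.103 and 0.121 CPM against 0.468 and 0.393 at 12 h, near the level of 3 reads in these libraries (0.0965 to 0.114 CPM before TMM scaling).

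Called at 24 h but not at 12 h were MT-TL1 (0.73), MT-TI (1.65), MT-TY (1.22), MT-TS1 (1.51), MT-TL2 (1.78), MT-TE (0.99) and MT-TT (1.44), the tRNAs for leucine (MT-TL1 and MT-TL2), isoleucine, tyrosine, serine, glutamate and threonine. The value of MT-TL2 rests on 3 and 3 reads with DMSO, against 12 and 7 with PA. MT-TS1 overlapped between groups, at 5.04 and 3.03 CPM with DMSO and 18.3 and 4.71 with PA, and without PA 24 h replicate 1 its change was 0.22 (adjusted p = 0.688). Not called at 24 h were MT-TF (0.59), MT-TV (0.13), MT-TG (0.00), MT-TH and MT-TS2 (0.88). MT-TF and MT-TV, for phenylalanine and valine, flank the 12S rRNA gene. The 4 tRNA genes left out of the test had 18 (MT-TR) to 50 (MT-TM) reads over all libraries.

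**Figure D4:**
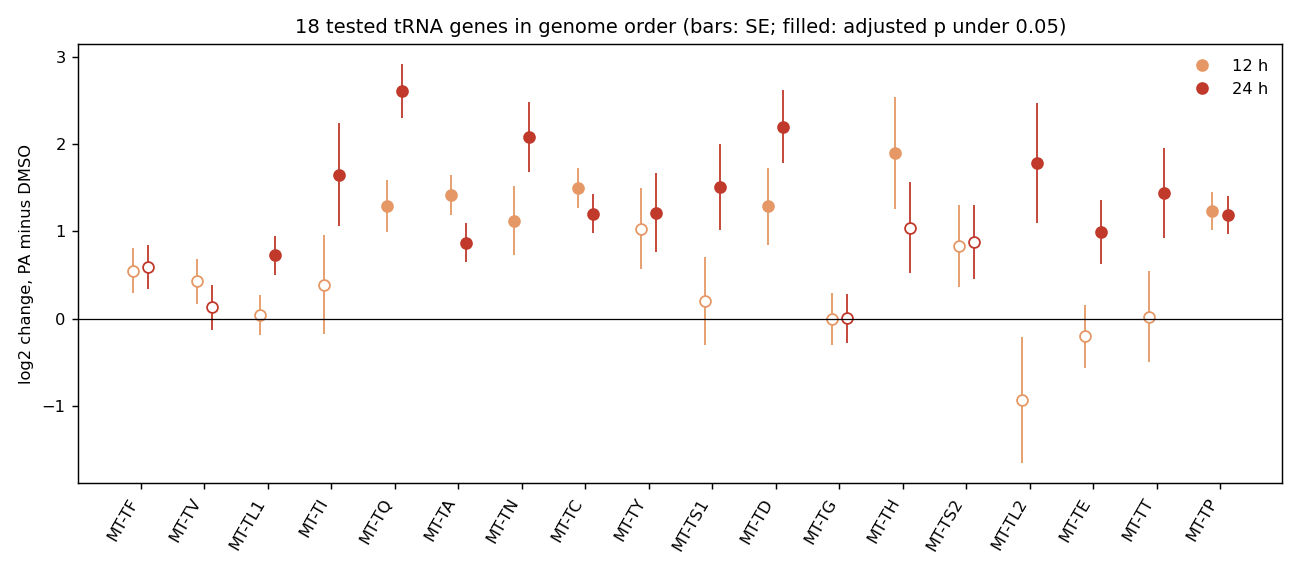
Log2 change of PA against DMSO (vertical axis, ± SE) of the 18 tested tRNA genes in genome order (horizontal axis) at 12 and 24 h, filled where the adjusted p was under 0.05. At 12 h 7 are filled and at 24 h 13, MT-TQ is highest at 24 h (2.61) and MT-TG lies at 0.00 at both times.

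The 2 deposited tables treat these genes unequally. For each gene and library the deposited RPKM was divided by the RPKM computed from the deposited counts and the gene's length. The median ratio was 0.921 for both rRNA genes and 0.681 (MT-ND5) to 0.915 (MT-CO1) for the 12 heavy-strand protein-coding genes. For the light-strand MT-ND6 it was 0.248. All 8 light-strand tRNA genes were under 0.5, from 0.005 (MT-TA) to 0.198 (MT-TE), and MT-TQ, with 49711 reads over all libraries, had 0.014. Among 14 heavy-strand tRNA genes 4 were under 0.5, namely MT-TL2 (0.065), MT-TS2 (0.076), MT-TG (0.095) and MT-TI (0.348). How reads were counted, and whether by strand, was not stated, so reads of a gene and of RNA from the opposite strand cannot be told apart in the counts, and the cause of the gap was not tested.

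**Figure D5:**
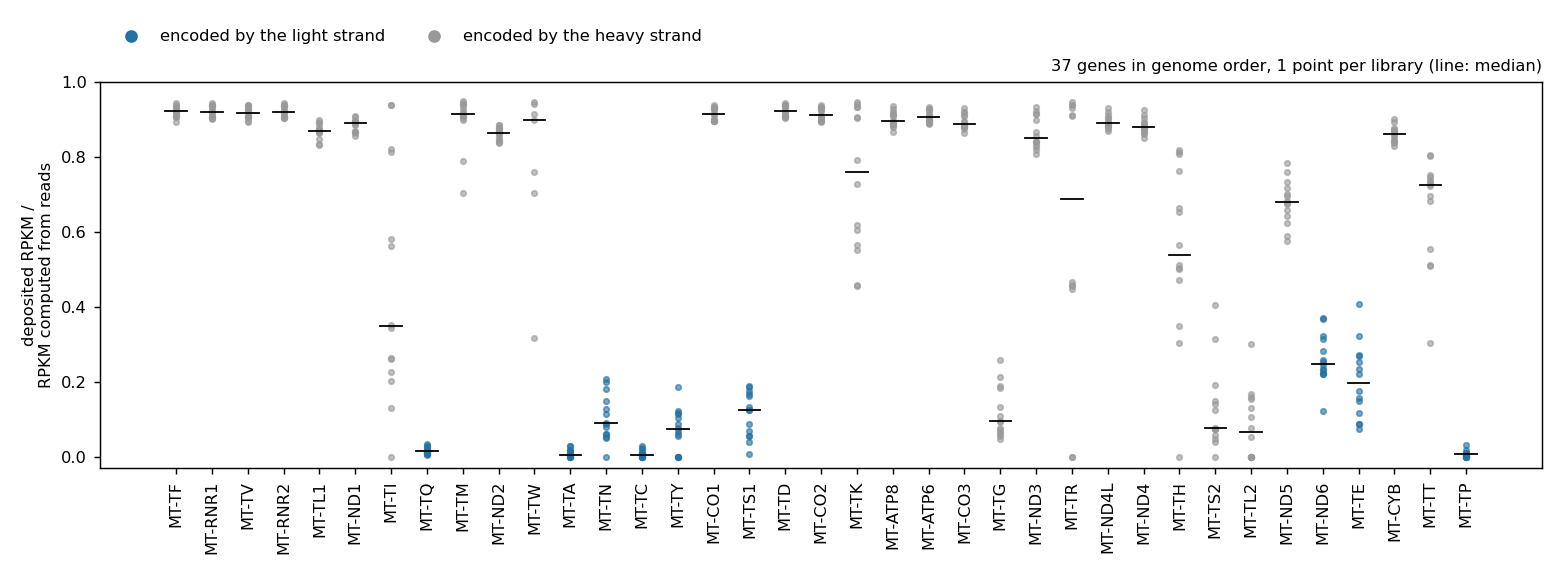
Ratio of deposited RPKM to RPKM computed from the deposited counts (vertical axis) for the 37 genes in genome order (horizontal axis), 1 point per library with the median as a line, light-strand genes in blue and heavy-strand genes in grey. The 9 light-strand genes lie at medians from 0.005 to 0.248, and the rRNA genes at 0.921.

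The RPKM scale (limma on log2(RPKM + 1)) understates changes of low genes and carries no TMM factors, which ran from 0.826 to 1.11. It therefore differs from the count fits in scaling as well as in table. On it the protein-coding genes kept their direction at 24 h, with a median of 0.76 (1.08 from counts), and 12 of 13 passed. MT-ND4L did not (0.34, adjusted p = 0.147). MT-ND3 rose by 2.06 and MT-TD by 1.70, beside 2.31 and 2.20 from counts. MT-RNR1 no longer passed (0.34, adjusted p = 0.147), although its ratio between the tables varied little (0.902 to 0.943). Computed from counts without TMM, its RPKM at 24 h was 2932 and 2815 with DMSO and 3654 and 3398 with PA. MT-TQ did not pass either (1.25, adjusted p = 0.0959), at a deposited RPKM of 23 and 22.2 with DMSO and 98.9 and 30.5 with PA. MT-TG, level in the counts, rose on this scale by 0.71 at 24 h (adjusted p = 0.00649), with 2.66 and 1.36 RPKM against 3.58 and 4.03. Among members called from counts, the signs of MT-TA, MT-TC and MT-TP turned negative at 12 h (-0.55, -1.05 and -0.98). At 24 h those of MT-TY (-0.20) and MT-TL2 (-0.03) did. Some members not called from counts turned as well, such as MT-TY at 12 h (1.03 to -0.44) and MT-TV at 24 h (0.13 to -0.19). At 24 h MT-TC (2.52, adjusted p = 0.00189), MT-TP (1.26, adjusted p = 0.03) and MT-TE (1.55, adjusted p = 0.0401) rose on this scale too. The other light-strand tRNA genes, MT-TA, MT-TN, MT-TS1, MT-TQ and MT-TY, did not pass there. Of these, MT-TA, MT-TN, MT-TS1 and MT-TQ were still positive at 24 h (0.40, 1.79, 0.63 and 1.25), so not passing does not show that their changes are absent. Most calls of the light-strand tRNA genes therefore hold for the counts table only, and all their changes are uncertain for the tRNAs themselves.

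Nuclear genes that serve the mitochondrial genome were read from lists of named factors. Of 15 genes for mitochondrial transcription, 0 were called at 3 h, 2 were higher and 8 lower at 12 h, and 2 higher and 9 lower at 24 h, with median log2 changes of -0.81 and -0.69 at 12 and 24 h (0.01 and -0.01 over all genes tested). Over all genes 24.4% were called higher and 24.1% lower at 12 h, and 27.2% and 27.5% at 24 h. TFAM, which packages the genome and opens its promoters, read 112 and 109 CPM with DMSO and 18.9 and 45.4 with PA at 12 h. TFAM fell at 12 h, at -1.78 ± 0.30 (adjusted p = 0.000481), and at 24 h, at -1.91 ± 0.30 (adjusted p = 0.000189). TFB2M, the initiation factor of the polymerase, fell at 12 h (-0.81 ± 0.16) and 24 h (-1.29 ± 0.16). GABPB1, a subunit of a nuclear regulator of respiratory genes, fell at both times (-1.11 and -1.51). MTERF3, of the family of mitochondrial termination factors, also fell at both (-1.03 and -1.78). The members called higher, named after their values were seen, were POLRMT, the mitochondrial RNA polymerase, at both times (0.79 and 0.56), PPARGC1A, a coactivator of mitochondrial biogenesis, at 12 h (0.95) and ESRRA, a nuclear receptor, at 24 h (0.54).

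Of 16 genes for replication and upkeep of mitochondrial DNA, 1 was higher and 3 lower at 12 h, and 3 higher and 9 lower at 24 h. The 12 h counts are no larger a share than over all genes (24.4% higher and 24.1% lower), while at 24 h 27.5% of all genes were lower. DNA2, a nuclease and helicase, fell at both times (-1.57 and -2.37), as did MGME1, an exonuclease (-0.93 and -1.58), and PRIMPOL, a primase and polymerase (-1.18 and -1.26). The higher members, again named after their values were seen, were POLG, the mitochondrial DNA polymerase, at both times (0.57 and 0.67), and MPV17 and TOP1MT, the mitochondrial topoisomerase, at 24 h (0.82 and 0.58). Copy number of the mitochondrial genome was not measured. Among 31 matched genes for processing, modification and decay of mitochondrial RNA, 4 were higher and 13 lower at 12 h, and 6 higher and 15 lower at 24 h, beside the same shares over all genes. With PA 12 h replicate 1 left out these 12 h counts were 2 and 7, and those of the transcription and replication lists 2 and 9 and 1 and 3. PNPT1, the RNA-degrading polynucleotide phosphorylase, fell at both times (-1.50 and -1.83). MTPAP, the poly(A) polymerase, fell at 12 h (-0.93) and 24 h (-1.67). RNase P, which cuts the 5′ ends of the tRNAs, needs both TRMT10C and HSD17B10. At 12 and 24 h TRMT10C fell (-1.72 and -1.43) and HSD17B10 rose (0.92 and 1.13).

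Most nuclear subunits of the same complexes were called higher as well, and their medians were above that of all genes tested. Of 21 complex I genes tested, 16 rose at 12 h and 17 at 24 h, and 0 fell, with medians of 0.62 and 0.67. Of 25 genes of complexes III to V, 16 rose at 12 h and 24 at 24 h, and 0 fell, with medians of 0.62 and 0.80. Of all genes tested 24.4% and 27.2% were called higher. Without PA 12 h replicate 1, 11 of the 21 and 12 of the 25 were called at 12 h. NDUFA1 of complex I rose by 1.65 ± 0.17 at 24 h (adjusted p = 1.14e-05), from 60 and 54.1 CPM to 177 and 182. NDUFB7 and NDUFA13 rose by 1.83 and 1.70. In complex IV, COX5B read 78.6 and 78 CPM with DMSO and 279 and 344 with PA at 24 h, a rise of 1.99 ± 0.26 (adjusted p = 4.89e-05), and COX4I1 rose by 1.31. UQCRH and UQCRC1 of complex III rose by 1.26 at 24 h and 1.20 at 12 h. At 3 h 0 genes of the 5 nuclear lists were called. Beside the protein-coding mitochondrial median of 1.08 at 24 h, the 2 nuclear medians were lower, and that difference was not tested.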

How the data were processed

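Read counts per gene and RPKM values of 14 libraries were used. The authors deposited raw counts of 28120 genes and RPKM of 25447 genes; TopHat2, edgeR and GRCh38 are named per the submitters' processing notes, without versions; for the counter, the annotation and the use of strand, no source used here gives a name or setting. Counts were fitted with edgeR 4.0.16 in R 4.3.3 (filterByExpr, TMM, 1 mean per group over all 14 libraries, quasi-likelihood test, Benjamini-Hochberg adjustment over 15181 genes, threshold 0.05). The test was checked on simulated data. Shares of reads were compared by exact permutation within time. RPKM was tested with limma 3.58.1 on log2(RPKM + 1), without TMM factors, because RPKM are not counts. Alternatives used DESeq2 1.42.0, other scalings, filters and left-out libraries. Gene positions and sequences come from GENCODE 29, to which all 37 gene identifiers matched. Named were all protein-coding and rRNA genes, tested tRNA genes, and up to 3 genes of smallest p per nuclear list and time. PRORP was left out because 2 rows carry its symbol. Members and lists were chosen with earlier results of these data known. Depth of 26403984 to 35213154 reads per library puts 3 reads at 0.0852 to 0.114 CPM; with 2 libraries a group, p-values measure the spread between these libraries. Replicate numbers were not used as a block, because the labels do not say what they share. Same-numbered libraries deviated together (correlation over 0.1) in only 2 of 21 group pairs.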

Additional observations from a re-analysis of the deposited data

Results flagged for a closer look

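The effect of PA differed between 24 h and 3 h for 15 members, by the test of that difference in edgeR. In complex I the 24 h effect exceeded the 3 h effect by 1.78 (MT-ND3, adjusted p = 0.0078), 1.59 (MT-ND6), 1.13 (MT-ND1), 1.04 (MT-ND4), 1.03 (MT-ND2) and 0.83 (MT-ND5) on the log2 scale. For complex IV the excess was 1.37 (MT-CO1), 1.36 (MT-CO2) and 0.87 (MT-CO3, adjusted p = 0.0452, the weakest of the 15). MT-CYB differed by 1.01, MT-ATP6 by 1.38 and MT-ATP8 by 0.96. Among tRNA genes, MT-TQ differed by 2.19 (adjusted p = 0.00532, the smallest of the 15), MT-TD by 1.93 and MT-TL1 by 1.29. Leaving out 1 library of the groups compared gave 5 to 11 members in place of 15, and of the protein-coding genes MT-ND4L alone was not among the 15. With limma on log2(RPKM + 1) 5 were called (MT-ND3, MT-CO1, MT-CO2, MT-TD and MT-TL1). MT-ND6 was not (1.33, limma adjusted p = 0.0877).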

How the results depend on the processing

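Counts of called members ran from 19 to 31 at 24 h, in place of 28, and from 18 to 32 for the average of the times, in place of 25. The lowest came from limma on log2(RPKM + 0.1), where 18 of the 19 at 24 h were among the 28. These ranges leave out scaling to the 13 protein-coding mitochondrial genes, which asks about proportions. That scaling called 9 at 24 h, 10 for the average, 5 at 12 h, 3 for 24 h minus 3 h, and 0 in DMSO at 12 and 24 h. At 12 h, 8 members were called with the libraries of that comparison alone and with limma on log2(RPKM + 1) or log2(RPKM + 0.1), in place of 18. For 24 h minus 3 h these limma fits gave 5 and 5, and 9 with an RPKM minimum of 1, in place of 15. At 3 h, where none was called, DESeq2, the GC content and length correction and that correction with the replicate block gave 1 each, and no filter and the comparison's libraries alone 2 each. For 12 h minus 3 h the counts were 3 (DESeq2 and GC correction), 13 (no filter), 1 (GC correction with block) and 1 (RPKM minimum), in place of 0, and for 24 h minus 12 h 1 (DESeq2), 4 (no filter) and 1 (RPKM minimum). In DMSO alone, 3 h gave 1 without a filter. At 12 h DESeq2 gave 4, no filter 14, 5 CPM in 2 libraries 0, the comparison's libraries alone 20, and the GC correction 4 (3 with block), in place of 1. At 24 h they gave 6, 11, 1, 17 and 6 (6 with block), in place of 2. DESeq2-type size factors gave 1 there and the replicate block 0. Limma on log2(RPKM + 1) or log2(RPKM + 0.1) gave 1 each, and 2 with the RPKM minimum. Shares of all genes called are not given for these fits, so the counts show dependence on the fit only.

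Leaving out in turn 1 library of the groups compared gave 0 to 1 members at 3 h, 8 to 22 at 12 h, 21 to 25 at 24 h, 23 to 25 for the average, 0 to 16 for 12 h minus 3 h, 0 to 12 for 24 h minus 12 h, 5 to 11 for 24 h minus 3 h, and 0 in each DMSO comparison. The protein-coding share difference ran from 1.11 to 1.83 percentage points (adjusted p up to 0.139), the rRNA share from 0.578 to 1.02 and the tRNA share from 0.0092 to 0.0141 (both up to 0.0926). With the replicate block the 3 share differences, 1.47, 0.80 and 0.0116, had an adjusted p of 0.104, since fewer arrangements exist. As shares of summed RPKM they were 3.00, 0.859 and 0.00538 points (adjusted p = 0.116, 0.116 and 0.694). Same-numbered libraries showed little shared deviation (correlations of -0.22 to 0.24), and the labels do not say what a replicate number shares. With the block 17 members were called at 12 h and 28 at 24 h.

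Changes of sign are given for members and named nuclear genes only where the main fit or the alternative called the gene. Uncalled genes that turned, such as MT-ND4 scaled to the 13 genes at 12 h (0.46 to -0.31), are not listed. Scaled to the 13 genes, log2 changes turned negative at 12 h for -0.009 (MT-RNR1), -0.14 (MT-ND1), -0.24 (MT-ND2), -0.081 (MT-ATP8), -0.036 (MT-CO3), -0.58 (MT-ND5), -0.016 (MT-CYB) and -0.086 (NDUFA1), and at 24 h for -0.65 (MT-RNR1), -1.20 (MT-TV), -0.21 (MT-RNR2), -0.59 (MT-TL1), -0.23 (MT-ND1), -0.36 (MT-ND2), -0.44 (MT-TA), -0.11 (MT-TC), -0.10 (MT-TY), -0.31 (MT-ATP8), -0.26 (MT-CO3), -1.30 (MT-TG), -0.65 (MT-ND4L), -0.42 (MT-ND4), -0.54 (MT-ND5), -0.34 (MT-TE), -0.18 (MT-CYB), -0.13 (MT-TP), -0.008 (COX4I1), -0.17 (HSD17B10), -0.25 (UQCRC1) and -0.055 (UQCRH). The difference between 24 h and 3 h turned to -0.13 (MT-ND1), -0.23 (MT-ND2), -0.29 (MT-ATP8), -0.39 (MT-CO3), -0.21 (MT-ND4), -0.43 (MT-ND5) and -0.25 (MT-CYB). On log2(RPKM + 1), with or without the minimum, signs turned at 12 h to -0.55 (MT-TA), -1.05 (MT-TC), 0.86 (MT-TG) and -0.98 (MT-TP). At 24 h they turned to -0.20 (MT-TY) and, without the minimum only, -0.026 (MT-TL2), and in DMSO at 24 h to 1.15 (MT-TQ). With 0.1 added they were -1.67 (MT-TA), -2.52 (MT-TC), 1.17 (MT-TG) and -2.61 (MT-TP) at 12 h, -1.13 (MT-TY) and -0.071 (MT-TL2) at 24 h, and 1.23 (MT-TQ) in DMSO. The GC correction gave MT-TG 1.55 at 12 h, with and without the block. Apart from fewer samples or arrangements, the cause of these shifts was not tested.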
